A study of Mus musculus with 10 samples.

Results

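The 9 genes described here (Irf7, Irf1, Isg15, Ifit1, Ifit3, Ifi27l2a, Bst2, Gbp2 and Cxcl9) are induced by interferons, and they were taken by symbol from a table of 14623 genes. All 9 symbols were found. The counts came from the stromal vascular fraction (SVF), that is, the non-adipocyte cells that digested fat yields, of the inguinal white adipose tissue (iWAT) of mice aged 7 weeks, when animals of this line are still lean. A single Bbs8 KO mouse (Bbs8-/-, lacking the gene in all cells, with no Cre) was compared with a single Bbs8 WT mouse (Bbs8+/+) from a breeding with littermate controls, and no treatment was given to either. The question put by the design was how loss of BBS8, a subunit of the BBSome that sorts proteins in primary cilia, affects the cells of this fat depot. Transcripts were captured with Seq-Well S3, in which each cell shares a well with a barcoded bead and each molecule carries a unique molecular identifier (UMI).

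Interferons are secreted signals of antiviral and inflammatory defence. Type I interferons act through the receptor IFNAR and the factor ISGF3, which binds the interferon-stimulated response element (ISRE), whereas interferon gamma acts through IFNGR and the gamma-activated site (GAS). Many cells also keep a low level of interferon-stimulated genes without infection, and macrophages are known as a cell type in which this tonic level is readily seen.

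The table held 8985 Bbs8 KO cells with 3144195 UMIs and 1929 Bbs8 WT cells with 715989 UMIs, at a median of 251 and 278 UMIs per cell. Cells fell into 10 barcode sets, 5 per genotype, named KO5_p2, KO5_p3, KO6_p1, KO6_p2, KO6_p3, WT3_p1, WT3_p2, WT3_p3, WT4_p2 and WT4_p3. The sets came from a single mouse per genotype according to the design text, the numbers in the codes were not explained, and therefore no test was run and set ranges are given as a technical spread. WT4_p2 alone held 42.4% of the Bbs8 WT UMIs, so values are also given without it, or without another set, where a single set decided them. Of 10847 barcodes, 36 occurred in more than 1 set and 7 of these in both genotypes, and leaving out the 37 cells of the 4 barcodes found in 7 or more sets left the log2 ratio of the summed members over all cells at −0.40. Levels are given as CPM, the UMIs of a gene scaled to a common total of all UMIs of the same cells. Bbs8 is listed as Ttc8, and its 0 UMIs in the Bbs8 KO cells allow a level of up to 0.954 CPM, whereas 1 Bbs8 WT set held all 5 UMIs of that genotype (6.98 CPM, 95% counting interval 2.27 to 16.3). Ifi27l2a lies 4.46 Mb from Ttc8 on the same chromosome, and it is the only member on that chromosome.

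The promoters of the members are shown because interferon signalling is known to act on them through the ISRE and the GAS. RefSeq promoters (GRCm38.p6) were at hand for 8 of the 9 members, and the 160 bases before each RefSeq start were searched on both strands for GAAANNGAAA as the ISRE and TTCNNNGAA as the GAS. The ISRE letters occurred in 5 members (Isg15, Ifit1, Ifit3, Bst2 and Gbp2), against 1.72% of 32851 promoters of the same length, or 2.00% of 27025 gene symbols. The Gbp2 match began 59 bases before the RefSeq start, which lies inside the gene as annotated by GENCODE, and Gbp2 is not printed. The GAS letters occurred in 2 members (Irf1 and Bst2), against 4.36% of all promoters, or 5.07% of gene symbols. Irf7 and Cxcl9 held neither in this window. The printed bases end before the RefSeq start or before the first base of the GENCODE gene, whichever comes first, are read 5′ to 3′ on the strand of the gene, and carry the matches in capitals. They are chr4:156200819-156200978 (minus strand) for Isg15, chr19:34640729-34640870 (plus) for Ifit1, chr19:34583369-34583528 (plus) for Ifit3, chr8:71537473-71537632 (minus) for Bst2 and chr11:53769854-53770013 (plus) for Irf1.
Isg15: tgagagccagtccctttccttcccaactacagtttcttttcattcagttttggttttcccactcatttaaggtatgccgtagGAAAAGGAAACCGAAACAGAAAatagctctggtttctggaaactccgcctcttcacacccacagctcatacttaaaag
Ifit1: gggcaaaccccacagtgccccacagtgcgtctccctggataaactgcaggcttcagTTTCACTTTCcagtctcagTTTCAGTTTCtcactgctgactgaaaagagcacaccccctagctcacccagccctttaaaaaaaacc
Ifit3: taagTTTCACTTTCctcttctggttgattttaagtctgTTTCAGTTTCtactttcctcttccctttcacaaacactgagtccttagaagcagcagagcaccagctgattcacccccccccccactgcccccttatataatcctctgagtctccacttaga
Bst2: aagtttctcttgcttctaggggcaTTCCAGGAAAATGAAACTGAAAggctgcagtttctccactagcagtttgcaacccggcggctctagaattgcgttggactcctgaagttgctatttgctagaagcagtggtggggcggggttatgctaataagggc
Irf1: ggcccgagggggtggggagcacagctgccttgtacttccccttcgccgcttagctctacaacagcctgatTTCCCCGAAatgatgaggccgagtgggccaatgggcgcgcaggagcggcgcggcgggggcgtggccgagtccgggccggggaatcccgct

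In Isg15 the capitals hold 3 overlapping ISRE matches, the first of which began 78 bases before the RefSeq start. Ifit1 and Ifit3 each held 2 separate matches on the opposite strand, with the same letters in both genes. In Bst2 a GAS match overlapped a pair of ISRE matches, and in Irf1 the capitals are a single GAS match. A match of letters is a description of the sequence and does not show binding.

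Over all cells, the levels of the 9 genes were low, and no member differed by a factor of 2 between the genotypes. The fold rule used throughout (a log2 ratio of at least 1 in size with a pseudocount of 5 CPM, among genes with at least 50 UMIs) was met by 0 of the 9 members, although 12.5% of all 8776 genes met it upwards in Bbs8 KO and 3.17% downwards. The barcode sets of the genotypes overlapped for all 9 members, whereas those of 11.5% of all genes lay wholly above and 4.92% wholly below Bbs8 WT. The summed level of the members was 853 CPM in Bbs8 KO (821 to 886) and 1124 CPM in Bbs8 WT (1048 to 1205), and the log2 ratio was −0.40 (−0.51 to −0.28). Without WT4_p2 this ratio was −0.11 (−0.26 to 0.05), so this set carried most of the difference. Summed by the number in the set code, the members stood at 904 CPM in KO5, 825 in KO6, 849 in WT3 and 1295 in WT4, so WT3 lay between the Bbs8 KO values and WT4 above them.

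**Figure D1:**
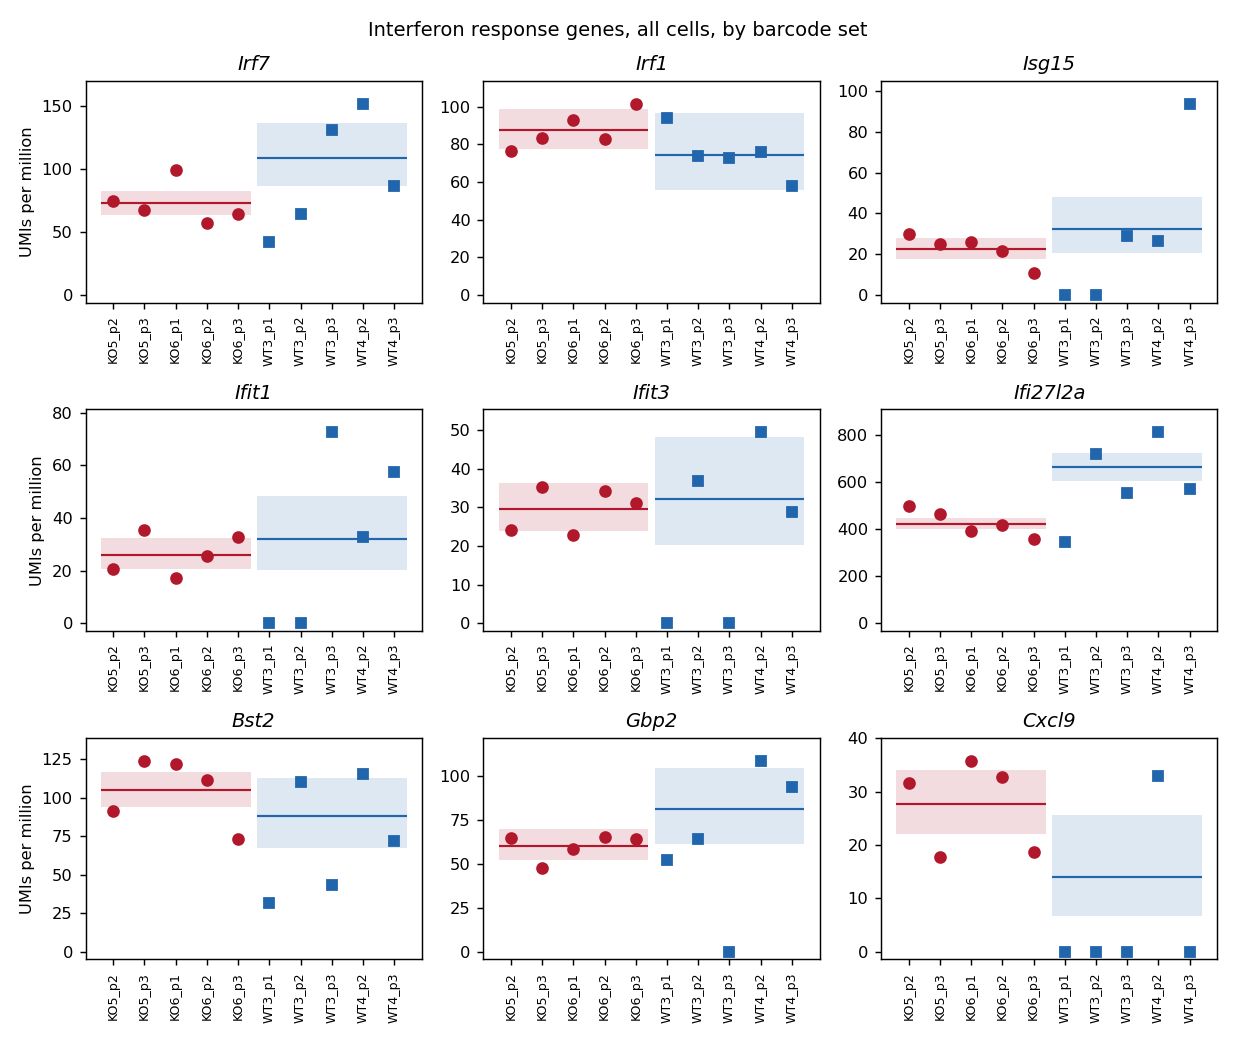
Level of each of the 9 genes over all cells in each of the 10 barcode sets, in CPM on the y axis of each panel, with a point per set, a line at the level of the pooled genotype and a band for its exact Poisson 95% interval. The sets of the genotypes overlap in every panel, and the Bbs8 WT sets spread more widely than the Bbs8 KO sets, as for Ifi27l2a with 345 to 810 CPM against 357 to 496 CPM.

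Among the transcription factors, Irf7, which amplifies the type I response, was at 74.3, 67.2, 98.8, 57.1 and 64.0 CPM in the Bbs8 KO sets in the order given above. In the Bbs8 WT sets it was at 41.8, 64.3, 130, 151 and 86.4 CPM. Its log2 ratio was −0.56 (−0.96 to −0.20), and it was −0.09 without WT4_p2, the set with its highest value. Irf1, an early target of interferon gamma and of other inflammatory signals, was at 76.2, 83.1, 93.1, 82.7 and 101 CPM in Bbs8 KO and at 94.1, 73.5, 72.5, 75.7 and 57.6 CPM in Bbs8 WT. The sets of Irf1 overlapped closely, and its log2 ratio of 0.23 (−0.18 to 0.70) did not leave counting error.

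The antiviral effectors Isg15, a ubiquitin-like modifier, and Ifit1 and Ifit3, which bind foreign RNA or partner in doing so, were rare, with 93 to 116 UMIs each over both genotypes. Isg15 was at 29.7, 24.8, 25.8, 21.4 and 10.9 CPM in Bbs8 KO and at 0, 0, 29.0, 26.3 and 93.6 CPM in Bbs8 WT. Ifit1 was at 20.4, 35.4, 17.2, 25.7 and 32.8 CPM in Bbs8 KO and at 0, 0, 72.5, 32.9 and 57.6 CPM in Bbs8 WT. Each had no UMI in WT3_p1 and WT3_p2, where 3 counts would be 31.4 and 27.6 CPM, or 14.7 CPM over both sets together. Ifit3 was at 24.2, 35.4, 22.9, 34.2 and 31.2 CPM in Bbs8 KO and at 0, 36.8, 0, 49.4 and 28.8 CPM in Bbs8 WT. The log2 ratios were −0.45 (−1.23 to 0.22), −0.26 (−0.98 to 0.43) and −0.10 (−0.79 to 0.61), and none was separable from counting error. Single sets decided their signs, with Isg15 at 0.29 and Ifit1 at 0.0041 without WT4_p3 and Ifit3 at 0.50 without WT4_p2. Near copies of these genes exist: Ifit1bl1 had 32 UMIs and Ifit3b had 14 in Bbs8 KO, and both had 0 in Bbs8 WT, so reads of Ifit1 and Ifit3 may be divided among copies.

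Ifi27l2a, a small membrane protein gene strongly induced by type I interferons, supplied 49.5% of the UMIs of all members in Bbs8 KO cells and 58.9% in Bbs8 WT cells. It was at 496, 465, 394, 418 and 357 CPM in the Bbs8 KO sets and at 345, 717, 551, 810 and 569 CPM in the Bbs8 WT sets. Of the Bbs8 WT sets, 4 lay above all Bbs8 KO sets and WT3_p1 lay below them. The log2 ratio was −0.64 (−0.80 to −0.50), and −0.39 without WT4_p2. Without Ifi27l2a, the other 8 members together had a log2 ratio of −0.10 (−0.28 to 0.08) over all cells.

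Bst2, which encodes tetherin and holds budding virus at the cell surface, was at 91.1, 124, 122, 111 and 73.3 CPM in Bbs8 KO and at 31.4, 110, 43.5, 115 and 72.0 CPM in Bbs8 WT, and its log2 ratio was 0.24 (−0.14 to 0.66), or 0.59 without WT4_p2. Gbp2, a guanylate-binding GTPase of the interferon gamma response, was at 65.0, 47.8, 58.7, 65.6 and 64.0 CPM in Bbs8 KO and at 52.3, 64.3, 0, 109 and 93.6 CPM in Bbs8 WT, and its log2 ratio was −0.39 (−0.85 to 0.03), or −0.0047 without WT4_p2. The chemokine Cxcl9, which attracts T cells through CXCR3, was at 31.6, 17.7, 35.8, 32.8 and 18.7 CPM in Bbs8 KO. It had no UMI in 4 Bbs8 WT sets and was at 32.9 CPM in WT4_p2. All 10 Cxcl9 UMIs of Bbs8 WT thus came from 1 set. The log2 ratio was 0.78 (0.04 to 2.10), and without WT4_p2 there was no UMI of Cxcl9 in Bbs8 WT at all. In bulk sums of this kind, fewer cells of a type and less RNA per cell cannot be told apart, and the mix of cells differed: stromal cells made up 15.1% of the cells of Bbs8 KO and 31.7% of those of Bbs8 WT, and T and B cells 26.9% and 12.6%.

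To follow the genes by cell type, cells were clustered and the clusters named from marker lists, with "-like" marking that the names rest on markers alone. The 17 clusters gave 11 named classes, and 6 clusters without leading markers (36.6% of the Bbs8 KO cells, 22.4% of the Bbs8 WT cells) stayed unnamed. The stromal cells divided into P1-like (483 Bbs8 KO and 211 Bbs8 WT cells), P2-like (700 and 304) and P3-like (172 and 96) adipocyte precursor cells (APCs), where P1 denotes the stem-cell-like, P2 the committed and P3 the regulatory APCs.

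The 9 genes did not share a single pattern across classes, and the orders given here are among the 11 named classes. The clusters under 60 cells, which belong to none, held 1.34% of the Bbs8 KO UMIs but 9.12% of those of Bst2 (30 UMIs) and 5.43% of those of Irf1 (15 UMIs). In Bbs8 KO, macrophage-like cells ranked first for Irf7, Ifit3 and Ifi27l2a, and P1-like cells for Isg15, Ifit1 and Bst2. In Bbs8 WT, P1-like cells again ranked first for Bst2, whereas macrophage-like cells ranked first for Isg15 (148 CPM, against 51.5 in P1-like cells), Ifit1 (92.6 against 61.9) and Ifit3 (148 against 51.5), on 5 to 8 UMIs each and with overlapping intervals. Ifi27l2a of Bbs8 KO was highest in macrophage-like cells at 1218 CPM (1083 to 1364), followed by P1-like cells at 917 CPM (799 to 1047), and both intervals lay apart from the next class, monocyte-like cells at 497 CPM (389 to 626). The lowest Ifi27l2a levels of Bbs8 KO were those of endothelial-like cells at 104 CPM (66.7 to 155) and pericyte-like cells at 65.1 CPM (13.4 to 190), whose intervals overlapped. Irf7 was also highest in macrophage-like cells in Bbs8 KO, at 234 CPM (177 to 303), against 118 CPM (78.2 to 170) in P1-like cells. The macrophage-like level rested on KO6_p1, which held 28 of the 57 UMIs (430 CPM, against 27.0 to 215 CPM in the other sets), and without this set it was 162 CPM (109 to 233) against 140 CPM (91.5 to 205), and these overlapped. Bst2 was at 290 CPM (226 to 367) in P1-like and at 205 CPM (152 to 270) in macrophage-like cells of Bbs8 KO, and these did not differ beyond counting error. Ifit1 was highest in P1-like cells of Bbs8 KO at 118 CPM (78.2 to 170), against 34.7 CPM in the next class, endothelial-like cells (8 UMIs, upper limit 68.3 CPM). The intervals overlapped when KO5_p3, KO6_p1 or KO6_p3 was left out, as at 98.1 (59.1 to 153) and 31.1 CPM (11.4 to 67.8) without KO5_p3. In Bbs8 WT the small mitotic-like class ranked first for Ifi27l2a at 1828 CPM (1300 to 2499) and for Irf7 at 516 CPM (257 to 923), with intervals that overlapped those of monocyte-like (1642 CPM of Ifi27l2a) and macrophage-like cells (241 CPM of Irf7).

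**Figure D2:**
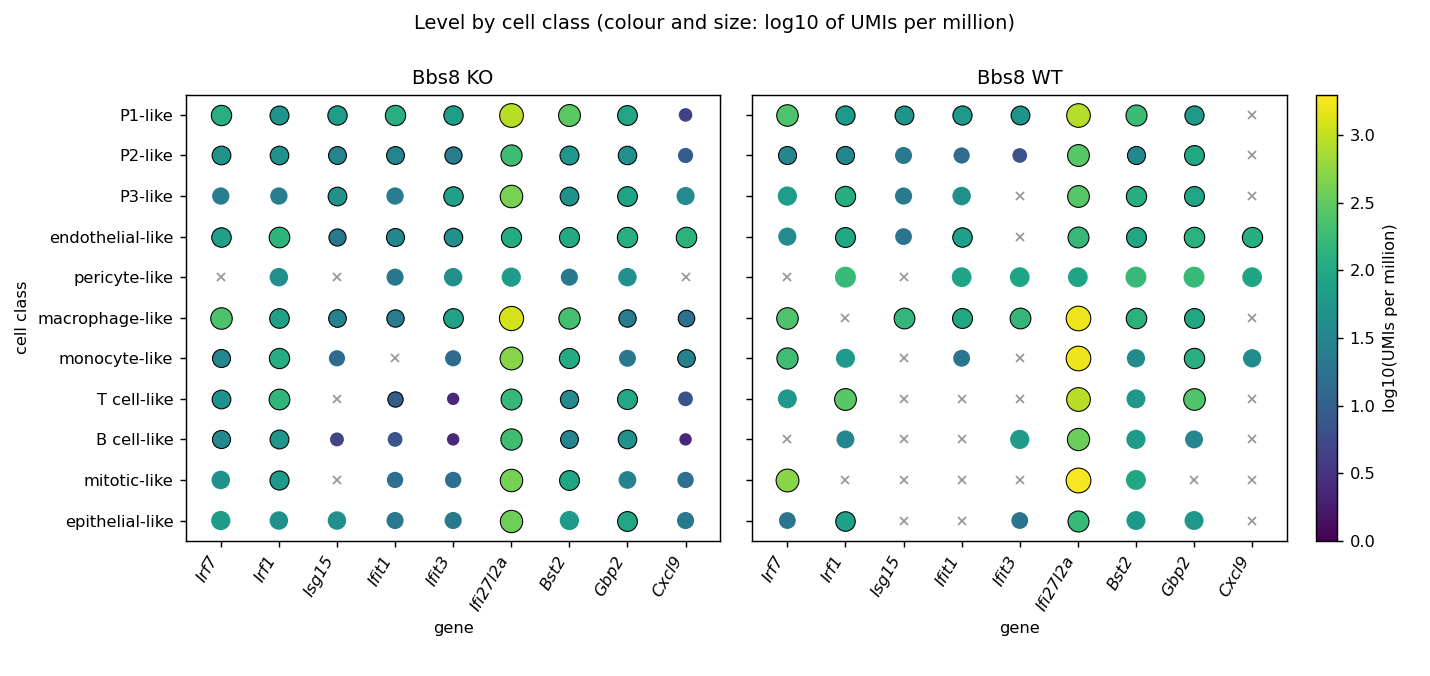
Level of each of the 9 genes (x axis) in the 11 named classes (y axis) of Bbs8 KO and Bbs8 WT, with colour and size for the log10 of CPM, a black rim where more than 3 UMIs were counted and a cross where there was none. Ifi27l2a is highest in macrophage-like and P1-like cells of Bbs8 KO, at 1218 and 917 CPM, and Cxcl9 is highest in endothelial-like cells, at 130 and 110 CPM.

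Among the named classes, which hold no dendritic class, Cxcl9, Gbp2 and Irf1 were highest in endothelial-like or T cell-like cells. Cxcl9 was highest in endothelial-like cells of both genotypes, at 130 CPM in Bbs8 KO (30 UMIs, 87.7 to 186) and 110 CPM in Bbs8 WT (6 UMIs, 40.2 to 239). The 5 Bbs8 KO sets had 91.4, 132, 150, 181 and 63.9 CPM there, and all 6 UMIs of Bbs8 WT came from WT4_p2. The intervals overlapped those of the next classes, P3-like in Bbs8 KO (36.4 CPM, 7.50 to 106) and pericyte-like in Bbs8 WT (84.0 CPM, 1 UMI). Gbp2 was highest in endothelial-like cells of Bbs8 KO at 117 CPM (77.1 to 170), followed by T cell-like cells at 95.3 CPM (68.4 to 129), and these overlapped. In Bbs8 WT, T cell-like cells came first for Gbp2 at 249.6 CPM (9 UMIs), followed by pericyte-like (168 CPM, 2 UMIs) and endothelial-like cells (128 CPM, 7 UMIs), all overlapping. Irf1 was highest in T cell-like cells at 146 CPM in Bbs8 KO (112 to 187) and at 277 CPM in Bbs8 WT (133 to 510), and endothelial-like cells of Bbs8 KO at 139 CPM (94.9 to 196) did not differ from the former beyond counting error. P1-like cells were at only 54.7 CPM (29.1 to 93.5) of Irf1 in Bbs8 KO.

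Between the APC classes, Ifi27l2a and Bst2 were several times higher in P1-like than in P2-like cells of both mice. The Ifi27l2a level was 917 against 188 CPM in Bbs8 KO, which is a log2 ratio of 2.25 (1.88 to 2.71). In Bbs8 WT it was 856 against 275 CPM (1.62, 1.07 to 2.23). Both were the only members with at least 50 UMIs in these classes of Bbs8 KO, and both met the fold rule there, which 7.63% of 1873 genes met in favour of P1-like cells. For Ifi27l2a, P1-like exceeded P2-like cells in 5 of 5 sets of each genotype, and in Bbs8 KO the set ranges of 758 to 1065 and 155 to 293 CPM did not meet, as for 7.58% of all genes. Bst2 was at 290 against 55.0 CPM in Bbs8 KO (2.30, 1.65 to 3.21), with separate set ranges, and at 175 against 35.2 CPM in Bbs8 WT (2.16, 0.82 to 4.11), where P1-like cells were higher in 3 of 5 sets. Irf7 was at 118 against 49.2 CPM in Bbs8 KO (1.18, 0.34 to 2.22) and at 237 against 35.2 CPM in Bbs8 WT (2.59, 1.32 to 4.50), higher in P1-like cells in 4 and 3 of 5 sets. Ifit1 was at 118 against 31.9 CPM in Bbs8 KO (1.74, 0.83 to 3.04), and in Bbs8 WT the 6 and 2 UMIs gave 1.81 (−0.35 to 5.48), higher in 4 and 2 of 5 sets. Irf1 showed no such step in Bbs8 KO (0.22, −0.94 to 1.39), and Gbp2 had ratios of opposite sign in Bbs8 KO (0.95, −0.00 to 2.08) and Bbs8 WT (−0.53, −2.25 to 0.93).

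Since clusters are drawn with the expression of all variable genes, the P1-like to P2-like step was recomputed after the members and the other interferon genes had been kept out of the clustering. In Bbs8 KO it was then 2.21 for Ifi27l2a, 2.35 for Bst2, 1.68 for Ifit1 and 1.39 for Irf7. In Bbs8 WT it was 1.65 for Ifi27l2a, 2.01 for Ifit1 (7 and 2 UMIs) and 2.40 for Irf7, and it was lower for Bst2, at 1.38 (179 against 65.8 CPM, 0.20 to 2.80). The summed level of macrophage markers in P1-like cells was 412 CPM for Bbs8 KO (sets 316 to 595) and 113 CPM for Bbs8 WT (sets 0 to 195), against 16040 and 17877 CPM in the macrophage and monocyte classes. In P2-like cells it was 692 CPM for Bbs8 KO (sets 541 to 839) and 169 CPM for Bbs8 WT (sets 0 to 323). The part of macrophage RNA in the P1-like levels was not tested.

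**Figure D3:**
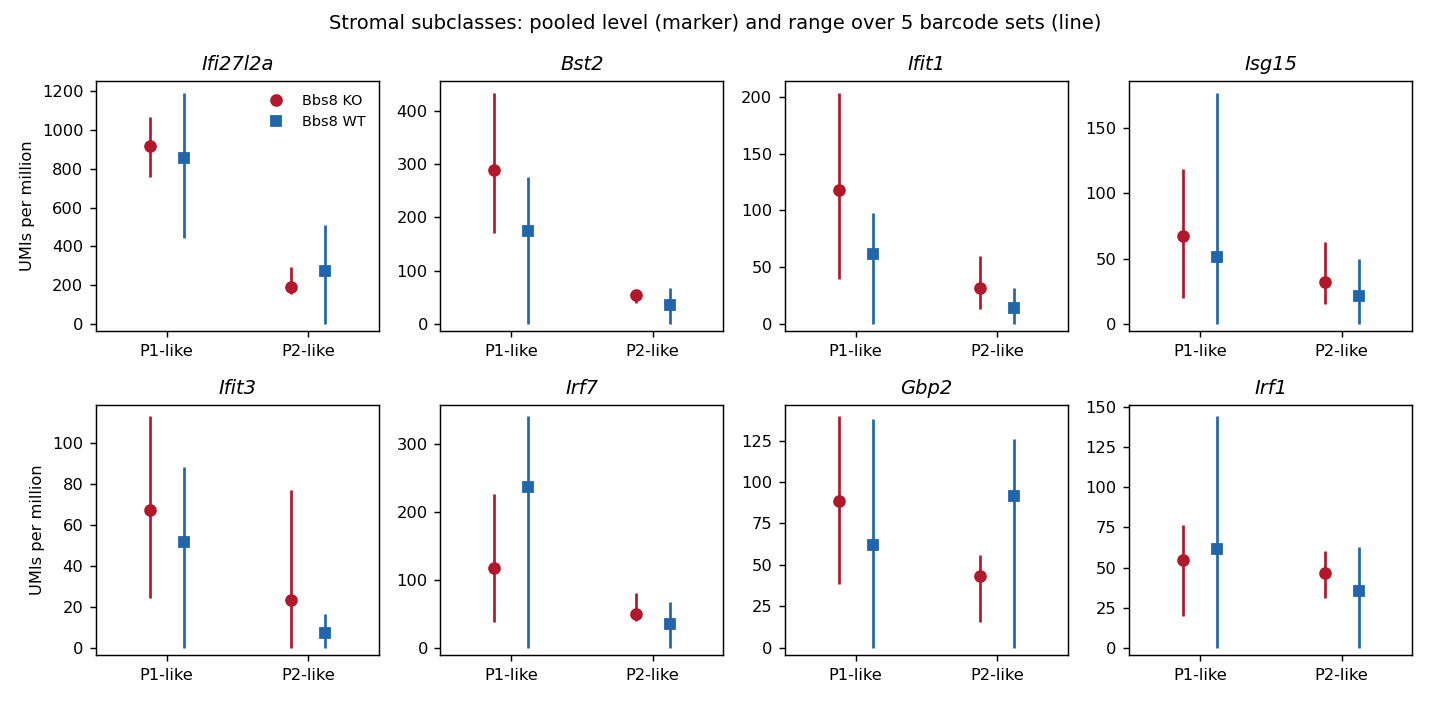
Level of 8 of the genes (Cxcl9 left out) in P1-like and P2-like cells in CPM, with the pooled level as a marker and the range over 5 barcode sets as a line, for Bbs8 KO and Bbs8 WT. Ifi27l2a (917 against 188 CPM in Bbs8 KO) and Bst2 (290 against 55.0 CPM) show the widest steps in Bbs8 KO, Irf7 stands at 237 against 35.2 CPM in Bbs8 WT, and the ranges of Irf1 overlap.

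Within stromal cells, the summed members did not separate the genotypes. They were at 962 CPM in Bbs8 KO (889 to 1039) and 902 CPM in Bbs8 WT (795 to 1020), the log2 ratio was 0.09 (−0.12 to 0.31), and the 5 sets ranged from 845 to 1067 and from 336 to 1249 CPM. Without WT4_p2 the ratio was 0.54 (0.25 to 0.84), so the value rested on this set. The levels of Ifi27l2a were 478 and 472 CPM (log2 ratio 0.02, −0.28 to 0.32). Bst2 (0.52, −0.09 to 1.22), Ifit1 (0.73, −0.22 to 1.97) and Ifit3 (0.94, −0.20 to 2.65) had higher values in Bbs8 KO and Irf7 (−0.60, −1.31 to 0.07) a lower value, all with intervals that include 0. Of the 5 members with at least 50 UMIs in stromal cells, 0 met the fold rule, which 4.69% of 3175 genes met upwards and 2.36% downwards. P1-like cells alone gave 0.15 (−0.13 to 0.43), with Irf7 at 118 and 237 CPM (−0.98, −1.86 to −0.15) and Bst2 at 290 and 175 CPM (0.71, −0.05 to 1.59). Irf7 and Bst2 thus had opposite signs in the same P1-like cells, on 51 and 86 UMIs. The sets of the genotypes overlapped for both genes, and the Bst2 interval included 0.

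In T and B cell-like cells, the members were lower in Bbs8 KO, at 444 CPM (400 to 491) against 1092 CPM (856 to 1374), a log2 ratio of −1.30 (−1.66 to −0.92). The sets ranged from 401 to 471 CPM in Bbs8 KO and from 317 to 1621 CPM in Bbs8 WT, so the ranges overlapped. Without Ifi27l2a the ratio was −0.71 (−1.27 to −0.10), so this gene carried much of the difference, and in B cell-like cells alone the other 8 members gave −0.10 (−1.28 to 1.39). Of the 3 members with at least 50 UMIs there, Ifi27l2a (178 and 658 CPM, −1.86, −2.38 to −1.37) and Gbp2 (70.8 and 150 CPM, −1.03, −2.06 to 0.05) met the fold rule downwards, as did 5.75% of 3286 genes (16.3% met it upwards), and Irf1 did not (100 and 165 CPM, −0.69, −1.63 to 0.34). In T cell-like cells alone Ifi27l2a was at 160 CPM (69 UMIs, sets 102 to 205) in Bbs8 KO and at 915 CPM (33 UMIs, sets 0 to 1425) in Bbs8 WT, with a log2 ratio of −2.48 (−3.13 to −1.87). B cell-like cells had 197 and 358 CPM (−0.84, −1.78 to 0.20).

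In T cell-like cells some marker lists of other cell types were also lower in Bbs8 KO, and others were higher. Those higher were the B cell (1763 and 832 CPM), dendritic (200 and 166), plasmacytoid dendritic (88.3 and 55.5) and natural killer cell lists (393 and 361), among others. In T cell-like cells the 10 macrophage markers summed to 193 CPM (sets 170 to 227) in Bbs8 KO and to 1054 CPM (0 to 1591) in Bbs8 WT, with 1 and 2 of the markers at 0, and the 8 stromal markers to 1547 and 3994 CPM, with none at 0. The T cell markers themselves summed to 9890 and 6573 CPM. Every T or B cell-like cell with a UMI of any of 47 stromal, endothelial, macrophage, monocyte or epithelial markers was then left out. After this, T cell-like cells held Ifi27l2a at 163 CPM (721 cells) and 616 CPM (72 cells, 11 UMIs), a log2 ratio of −1.88 (−2.93 to −0.79). The summed members of T and B cell-like cells were then at 463 and 1052 CPM (−1.18, −1.70 to −0.63). Without Ifi27l2a, T cell-like cells had −0.88 before and −1.35 after this step. UMIs of other classes below the detection of their markers were not tested.

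In macrophage-like and monocyte-like cells, the members were at 1505 CPM in Bbs8 KO (1386 to 1632) and 2301 CPM in Bbs8 WT (2020 to 2610). The log2 ratio was −0.61 (−0.83 to −0.39), with set ranges of 1317 to 1671 and 1520 to 2846 CPM. Leaving out any set gave −0.69 to −0.52. The difference was larger in monocyte-like than in macrophage-like cells (−0.38, −0.66 to −0.09), with intervals that lay apart. In monocyte-like cells all Bbs8 KO sets (646 to 943 CPM) lay below all Bbs8 WT sets (1390 to 3077 CPM), and the log2 ratio was −1.36 (−1.75 to −0.97). Ifi27l2a in these cells was at 497 CPM (72 UMIs, sets 323 to 767) in Bbs8 KO and at 1642 CPM (84 UMIs, sets 1324 to 2735) in Bbs8 WT. This is a log2 ratio of −1.71 (−2.20 to −1.25), and the sets of 1.15% of 434 genes lay below Bbs8 WT in this way. In macrophage-like cells Ifi27l2a was at 1121, 1350, 1184, 1416 and 1007 CPM in Bbs8 KO and at 434, 2372, 1023, 1952 and 1322 CPM in Bbs8 WT. These sets overlapped widely, and the log2 ratio was −0.42 (−0.77 to −0.06).

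Without Ifi27l2a, the other 8 members gave −0.53 (−1.27 to 0.24) in monocyte-like cells and −0.26 (−0.66 to 0.15) in both classes together. The 10 monocyte markers summed to 11280 and 13216 CPM in monocyte-like cells of Bbs8 KO and Bbs8 WT, and the macrophage markers to 4234 (sets 3547 to 5182) and 6080 CPM (4098 to 7749), with no macrophage marker at 0. Markers of other classes were higher in monocyte-like cells of Bbs8 KO, at 629 and 293 CPM for the dendritic, 221 and 58.6 for the plasmacytoid dendritic, 953 and 411 for the T cell and 1347 and 567 for the B cell list. In clusters drawn without integration, in which dendritic cells stood apart, monocyte-like cells had Ifi27l2a at 437 and 1630 CPM, a value added after seeing the data. A filter on 37 stromal, endothelial, macrophage and epithelial markers did not cover the dendritic, T cell and B cell lists. In monocyte-like cells without a UMI of those 37 markers, Ifi27l2a was at 363 CPM (62 cells, 8 UMIs) and 1869 CPM (41 cells, 24 UMIs), a log2 ratio of −2.35 (−3.73 to −1.16). The other members were at 499.6 and 389 CPM in these cells on 11 and 5 UMIs, and the part of other cell types in the difference was not tested.

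Isg15 and Gbp2 had lower values in the macrophage and monocyte classes of Bbs8 KO, with overlapping sets, at 23.2 against 76.1 CPM (9 and 8 UMIs, −1.53, −3.26 to −0.14) and 23.2 against 105 CPM (9 and 11 UMIs, −1.96, −3.62 to −0.77). Irf1 had 90.1 against 28.5 CPM (35 and 3 UMIs, with an interval that includes a log2 ratio of 0) and Bst2 167 against 85.6 CPM (65 and 9 UMIs, 0.93, −0.05 to 2.16). The 9 genes had values of both signs within these cells, and the sum mainly followed Ifi27l2a, which was 63.1% of it in Bbs8 KO and 71.1% in Bbs8 WT. Of the 3 members with at least 50 UMIs, 0 met the fold rule (5.99% of 1637 genes upwards, 2.38% downwards).

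Endothelial-like cells had summed levels of 763 CPM (654 to 884) and 713 CPM (507 to 974), a log2 ratio of 0.10 (−0.41 to 0.64). Mitotic-like cells, a small class of 125 Bbs8 KO and 34 Bbs8 WT cells, had 673 and 2437 CPM (−1.86, −2.47 to −1.25), with set ranges of 249.5 to 977 and 1054 to 6576 CPM, and 75.0% of the Bbs8 WT level was Ifi27l2a. A single Bbs8 WT cell held 11 of these 39 Ifi27l2a UMIs. In this class the T cell markers summed to 3423 and 1969 CPM, the B cell markers to 1420 and 3984 and the macrophage markers to 5590 and 7781, and their part was not tested. Pericyte-like cells had 239 and 840 CPM (−1.82, −3.19 to −0.42) on 11 and 10 UMIs, with overlapping sets, beside stromal markers at 6766 and 12767 CPM. Epithelial-like cells had 743 and 394 CPM (0.92, 0.09 to 1.78) on 34 and 21 UMIs. Their epithelial markers summed to 7214 and 11905 CPM, and those of other classes were higher in Bbs8 KO, at 9182 and 4987 CPM for stromal cells, 1815 and 712 for macrophages, 1399 and 244 for T cells and 2099 and 375 for B cells, and their part was not tested. The unnamed clusters, the largest group of cells, had 933 and 948 CPM (−0.02, −0.31 to 0.28).

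**Figure D4:**
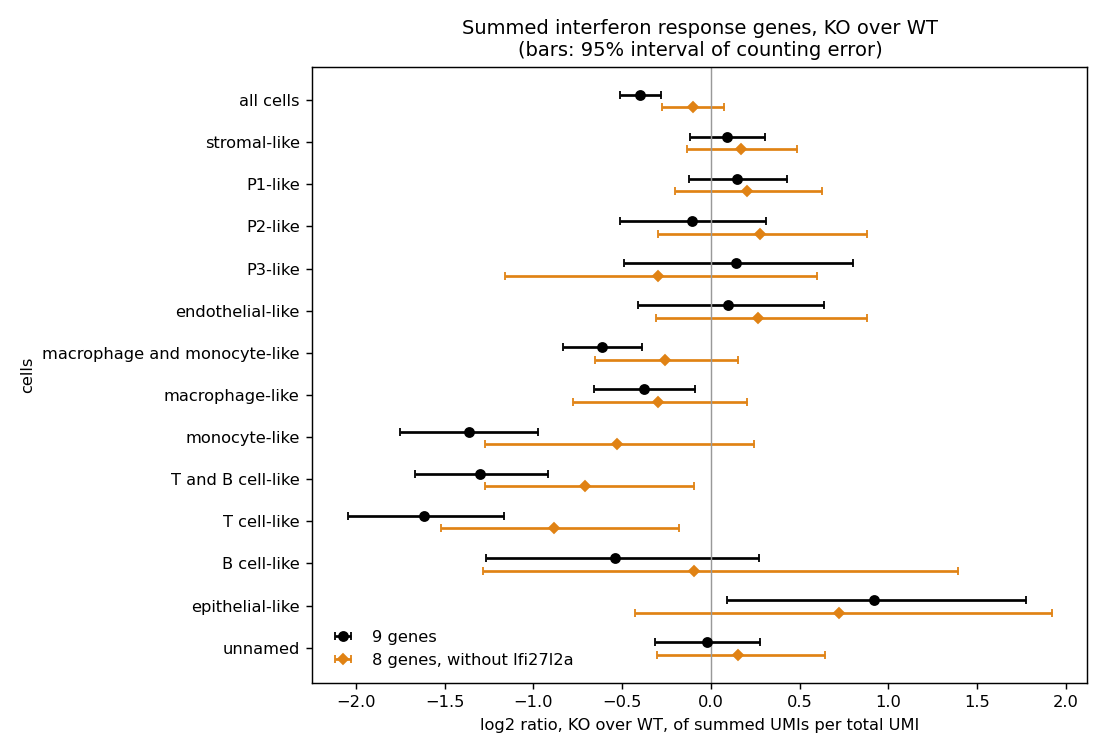
Log2 ratio of Bbs8 KO over Bbs8 WT of the summed members by class, with all 9 genes and without Ifi27l2a, and exact conditional 95% intervals as bars. Among the classes drawn, T cell-like (−1.62) and monocyte-like cells (−1.36) lie farthest below 0, and stromal and endothelial-like cells lie near 0. Mitotic-like and pericyte-like cells are not drawn.

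Few cells held UMIs of more than 1 of the rarest effectors. Of Isg15, Ifit1 and Ifit3, at least 1 was seen in 199 Bbs8 KO cells (2.21%) and 46 Bbs8 WT cells (2.38%). At least 2 of them were seen in 12 Bbs8 KO cells (0.134%) and 6 Bbs8 WT cells (0.311%), all of them P1-like, P2-like, P3-like or macrophage-like. Of the 6 Bbs8 WT cells, 4 came from WT4_p3, and without this set there were 2 of 1577 cells (0.127%). P1-like cells were 5 of the 12 and 4 of the 6, and 2 cells of each genotype held all 3 genes. The 12 and 6 cells had medians of 999.5 and 543.5 UMIs, against 251 and 278 over all cells, so depth moved with this count. Of the 63 Bbs8 KO cells with Isg15, 9.52% (3.58 to 19.6, Clopper-Pearson) also held Ifit3, which is 6 cells, against a share with a 95% interval of 0.652 to 1.04% in the other cells, at medians of 352 and 250 UMIs, and the part of depth in this was not tested.

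Across the 22 points made by 11 classes in 2 genotypes, the members whose levels were most alike were Irf7 and Ifi27l2a (Pearson r = 0.76), followed by Isg15 and Ifit1 (0.62) and Irf1 and Gbp2 (0.54), and the least alike were Irf1 and Ifi27l2a (−0.46). Among 3654 other genes with at least 200 UMIs, the closest to the summed members were Grn (0.70), Hexa (0.70), Npc2 (0.69), Gbp3 (0.68) and Maf (0.67). Grn, Hexa and Npc2 encode lysosomal proteins, Gbp3 is another guanylate-binding GTPase, and Maf is a transcription factor of tissue macrophages. When Ifi27l2a was left out of the sum, the closest were Cmtm3 (0.66), Neat1 (0.64), S100a13 (0.61), Gas7 (0.61) and Wwp1 (0.61), and none of the former 5. These points share libraries and differ in depth, and the values are descriptions.

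The wider interferon pathway was taken from lists of 165 genes, of which 138 were in the table and 112 had at least 50 UMIs over all cells. Of these, 17 met the fold rule upwards and 2 downwards, beside the 12.5% and 3.17% of all genes given above, and the median log2 ratio was 0.39, against 0.18 over all genes. With TMM scaling the split was 13 and 6. The barcode sets lay wholly above Bbs8 WT for 21 and wholly below for 6 of the 112 pathway genes, beside 11.5% and 4.92% of all genes. In stromal cells 1 of 52 genes met the rule upwards and 0 downwards, with a median of 0.21 against 0.03. None of the 21 interferon genes themselves was in the table.

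No receptor met the fold rule: Ifngr1 was at 211 CPM in both genotypes (0.00), Ifnar2 at 96.0 and 92.2 CPM (0.06) and Ifnar1 at 129 and 83.8 CPM (0.60). Of the signalling genes, Jak1 (745 and 507 CPM, 0.55) stayed under the fold rule, and Irf8, a factor of B cells and myeloid cells, met it (225 and 106 CPM, 1.05). Within B cell-like cells Irf8 was at 569 and 650 CPM. B cells were more frequent in Bbs8 KO, and the part of this in the Irf8 level over all cells was not tested. The sensors Ddx58 (0.51), Ifih1 (−0.08) and Eif2ak2 (0.48) did not meet it.

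Of the antiviral effectors, 8 of 46 met the fold rule upwards and 1 downwards, beside 12.5% and 3.17% of all genes. Shisa5, an endoplasmic reticulum protein, was at 945 against 316 CPM (1.57), with all Bbs8 KO sets above, and it was also higher in stromal (1.00), T and B cell-like (0.86) and macrophage and monocyte-like cells (0.91). Ifi209, a gene of the p200 family, was at 138 and 44.7 CPM (1.52). Ly6e was at 735 and 584 CPM (0.33) and Ifitm3, which blocks virus entry, at 617 and 881 CPM (−0.51), with all Bbs8 KO sets below. In stromal cells Ifitm3 had a log2 ratio of 0.05. Xaf1 was the effector lower in Bbs8 KO, at 16.9 against 110 CPM (53 and 79 UMIs, −2.40, −3.24 to −2.19), and all Bbs8 KO sets lay below the lowest Bbs8 WT set (73.5 CPM). Its values in stromal cells (18.0 and 116 CPM on 12 and 33 UMIs) and endothelial-like cells (30.3 and 329 CPM on 7 and 18 UMIs) rest on fewer UMIs than the fold rule asks for.

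Of the GTPases, 3 of 11 met the fold rule upwards (12.5% of all genes), among them Ifi47 (68.4 and 29.3 CPM, 1.10), while Gbp7 (0.20) and Iigp1 (0.06) did not. Among chemokines and checkpoints, Ccl5 of T cells met it upwards (155 and 37.7 CPM, 1.90) and Serping1, the C1 inhibitor, downwards (394 and 930 CPM, −1.23), and Wars (0.27) met neither. In stromal cells, which express Serping1, it was at 1252 and 1822 CPM (−0.54).

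Of the genes of MHC class I antigen presentation, 18 of 20 were above 0 over all cells, as were 61.7% of all genes, with a median of 0.51, and 2 met the fold rule upwards, beside 12.5% of all genes. H2-K1 was at 1665 against 936 CPM (0.83) and B2m, the invariant light chain, at 1468 against 798 CPM (0.88), and their Bbs8 KO sets lay above all Bbs8 WT sets. H2-D1 had 0.53, Psmb9 of the immunoproteasome 1.05 (136 and 62.9 CPM) and H2-Q7 1.54 (140 and 44.7 CPM). In stromal cells all 9 genes with at least 50 UMIs were above 0 (median 0.53), as were 52.7% of all genes, with B2m at 990 and 588 CPM (0.75) and H2-K1 at 0.66, while macrophage and monocyte-like cells had B2m at 2084 and 1055 CPM (0.98). Beside this, the T cell and B cell markers in stromal cells summed to 631 and 1258 CPM in Bbs8 KO and to 194 and 550 CPM in Bbs8 WT. The macrophage markers there were at 589 and 166 CPM and the dendritic markers at 212 and 102 CPM. In macrophage and monocyte-like cells the T cell markers were at 1032 and 342 CPM and the B cell markers at 1979 and 780 CPM. The part of these cell types in the MHC class I level was not tested. Of the negative regulators, Ptpn6, a phosphatase abundant in blood cells, met the fold rule (508 and 214 CPM, 1.23), and Adar (0.77) and Pias1 (0.66) did not. The median log2 ratio of the 9 members over all cells was −0.26, with 3 of the 9 above 0.

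**Figure D5:**
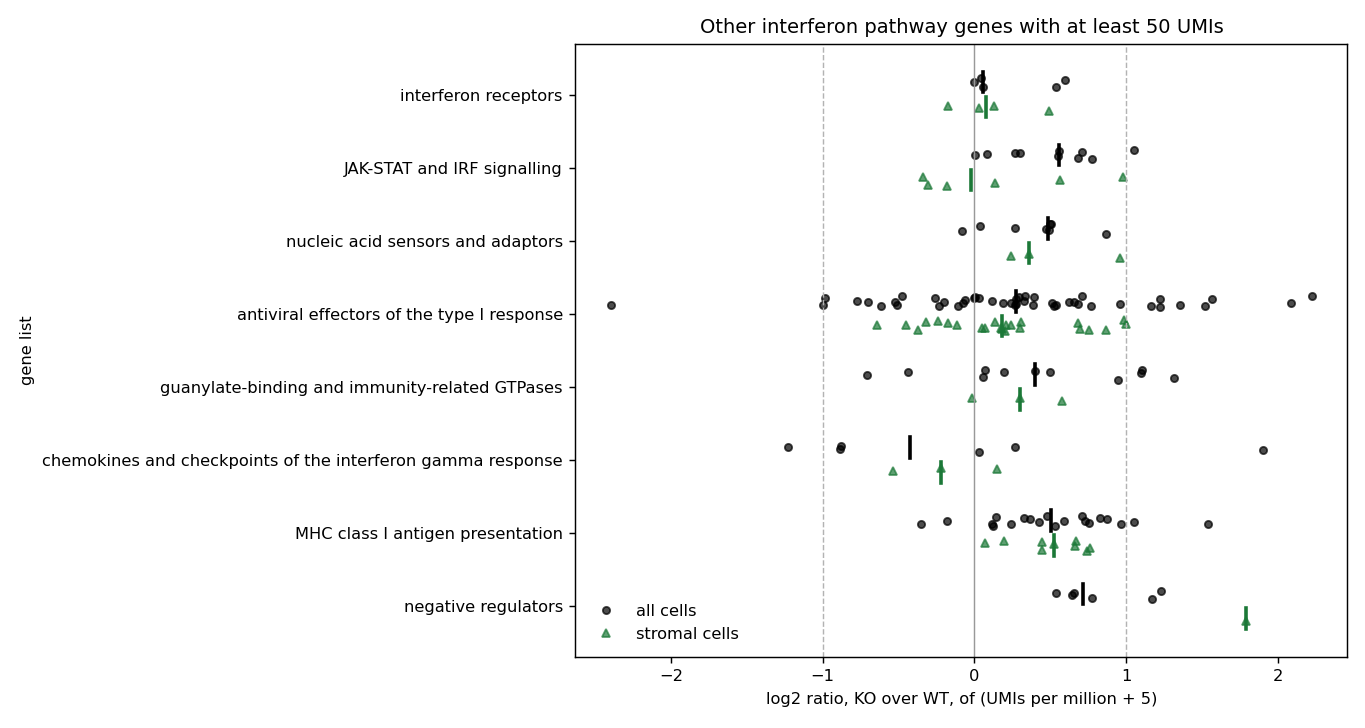
Log2 ratio (x axis, pseudocount of 5 CPM) of Bbs8 KO over Bbs8 WT for each gene of the pathway lists with at least 50 UMIs, 1 row per list, with circles for all cells and triangles for stromal cells, a short bar for the median of each list and dashed lines at the fold rule. The MHC class I genes lie mainly above 0 (median 0.51), and Xaf1 is the point farthest to the left at −2.40.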

How the data were processed

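The deposited table held UMI counts (whole numbers, a value for each gene in each cell) from 10 Seq-Well S3 libraries of iWAT SVF. The authors used bcl2fastq 2.20 to demultiplex, aligned the reads with STAR within dropSeqPipe on mm10 with a GENCODE annotation, counted UMIs, and evened depth with a scuttle function. Whether the deposited counts precede that step was not stated. The cells had 101 to 994 genes. Column names gave genotype and barcode set, 0 columns stayed unmapped, and sets could not be matched to single labelled samples.

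Seurat 5.3.0 in R 4.3.3 integrated the sets on 2000 variable features and 30 dimensions, k.filter 100, k.weight 50 and Louvain resolution 0.8, and clusters under 60 cells were left out. A cluster took the name of the marker list with the highest mean log2 fold (pseudocount 20 CPM) when this fold exceeded 0.5, as did those of 3 or more of its markers that had 3 or more UMIs. Doublets were kept and no caller was run, and free RNA was not removed.

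UMIs were summed per genotype and class and scaled to CPM of all UMIs of those cells, which needs no length correction. Intervals are exact Poisson 95% intervals for levels and exact conditional intervals of the plain ratio for log2 ratios. Ratios of single genes carry a pseudocount of 5 CPM, and ratios of summed members none. They cover counting error only, and a count of 0 was given a limit of 3 counts. With 1 mouse per genotype no test was run. Ratio intervals were tested on simulated counts. Promoters came from RefSeq (GRCm38.p6) and gene starts from GENCODE.

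The members, the marker lists and the pathway lists were chosen with earlier results of these data known. The text names all 9 members, the 3 genes with the most UMIs of each pathway list, up to 6 list genes per direction past the fold rule with separate sets, and the 5 genes most like the summed members, except 1 signalling gene that is not reported here. Alternatives were edgeR 4.0.16 TMM and DESeq2 1.42.0 size factors, other pseudocounts, minimum counts, cell filters and clusterings, and each set left out.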

Additional observations from a re-analysis of the deposited data

Results flagged for a closer look

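Among 28 groups of 5 barcode sets looked at, 1 had a set far from the other 4, where chance gives about 1 in 20. This was Cxcl9 over all cells of Bbs8 WT, with 32.9 CPM in WT4_p2 and no UMI in the other sets. In those sets 3 counts would be 21.6 to 43.5 CPM in each and 7.28 CPM over all 4. Of the 10 UMIs in WT4_p2, 6 were in endothelial-like cells.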

How the results depend on the processing

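Of 307 recomputed values, 272 stayed close to the value reported and 35 moved. A log2 ratio counted as close if it lay within the counting interval of the reported ratio. These intervals can be wide, so some ratios changed sign and still counted as close. Over all cells, Ifit3 went from −0.10 to 0.50 without WT4_p2, and Ifit1 from −0.26 to 0.0041 without WT4_p3. No ratio with a reported interval that excluded 0 changed sign when single sets were left out. The summed members over all cells (−0.40) were at −0.55 with TMM and −0.57 with DESeq2 factors, which shift all log2 ratios over all cells by −0.15 and −0.17, at −0.10 without Ifi27l2a, and at −0.51 to −0.11 when single sets were left out, the last without WT4_p2. In stromal cells (0.09) leaving out sets gave −0.032 to 0.54 (without WT4_p2), in endothelial-like cells (0.10) −0.06 to 0.48, and in macrophage and monocyte-like cells (−0.61) −0.69 to −0.52, with −0.26 without Ifi27l2a. In T and B cell-like cells (−1.30) it gave −1.40 to −1.13, with −1.91 in cells of at least 200 genes and −0.71 without Ifi27l2a. The alternatives without Ifi27l2a were chosen after seeing the data. Members past the fold rule numbered 0, and 0 to 1 without single sets, the 1 being Cxcl9 without WT4_p2 (2.71), a value set by the pseudocount, since Bbs8 WT then has 0 UMIs and the level of Bbs8 KO is at least 3.80-fold higher than the limit of 3 counts. Single genes over all cells moved 5 times of 135: besides Cxcl9, these were Irf7 (−0.09) and Ifi27l2a (−0.39) without WT4_p2, Isg15 without WT4_p3 (0.29), and Ifi27l2a with DESeq2 factors (−0.81). Pathway genes higher in Bbs8 KO over all cells (17) numbered 11 at a minimum of 200 UMIs, 5 with a pseudocount of 20 CPM and 13 to 25 without single sets, and those lower (2) numbered 1 at 200 UMIs, 4 with a pseudocount of 1 CPM, 6 with TMM and 2 to 4 without single sets. In stromal cells those higher (1) numbered 13 at a minimum of 20 UMIs, 0 at 200, 5 with a pseudocount of 1 CPM and 1 to 4 without single sets, and those lower (0) numbered 1 at 20 UMIs and 0 to 0 without single sets. Apart from the minimum counts, which set how many genes are tested, the cause was not tested. No paired analysis was possible because each genotype is 1 mouse, no test was run and the set codes share no replicate number with the labels. Depth limits single Bbs8 WT sets, where 3 counts are 9.88 to 43.5 CPM.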

Other observations

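Of the 112 pathway genes with at least 50 UMIs, 2 had no UMI in any Bbs8 WT cell, as did 1.55% of all 8776 genes, and both were named after their values were seen. Oas1a, a sensor of double-stranded RNA, had 58 UMIs in Bbs8 KO (18.4 CPM, 14.0 to 23.8), at least 4.40-fold above the limit of 3 counts over the pooled Bbs8 WT cells, with 5 to 17 UMIs in each set. Ifi44l had 51 UMIs (16.2 CPM, 12.1 to 21.3), at least 3.87-fold above that limit, with 8 to 12 in each set. Gbp2b, a guanylate-binding GTPase in no list and chosen after its values were seen, had 150 UMIs (47.7 CPM, 40.4 to 56.0), at least 11.4-fold above it, with 24 to 38 in each set. Gbp2b is a near relative of Gbp2, and reads of the copies may be divided in ways that differ between the mice. Ifi27, the relative of Ifi27l2a, had UMIs in both mice (280 CPM for Bbs8 KO, 257 for Bbs8 WT).

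Dendritic cells did not form a class of their own in the integrated clusters. In clusters drawn without integration, where they were looked at after seeing the data, 64 cells (59 of Bbs8 KO) matched the plasmacytoid dendritic markers. These cells, known as strong producers of type I interferon that keep Irf7 and Bst2 high, held Bst2 at 1200 CPM (820 to 1693), Irf7 at 450 CPM (232 to 786) and Siglech, their surface marker, at 4573 CPM (3798 to 5461). Siglech is on the marker list that named them, so its high level was set by the naming. All 32 Bst2 UMIs came from Bbs8 KO, and the 5 Bbs8 WT cells held none. The 64 cells had 2 UMIs of Ifi27l2a (75.0 CPM, 9.08 to 271) and none of Isg15, Ifit1, Ifit3 or Cxcl9, which allows up to 112 CPM of each. A further 78 cells matching the other dendritic markers held Irf1 at 609 CPM (366 to 951).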
